A study of Mus musculus with 4 samples.

Results

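Icam1 and Vcam1 encode cell-surface proteins of the immunoglobulin superfamily that leukocytes grip when they stop and move through tissue. All probe sets annotated to either gene were taken, which gave 1 for Icam1 (1424067_at) and 3 for Vcam1 (1448162_at, 1415989_at and 1451314_a_at), that is 4 of 34945 probe sets with a single gene and 2 of 18193 named genes. The cells were mouse embryonic 3T3 fibroblasts, an immortal line, held overnight in 0.5% serum. One array each was made after 0.5 h, 2 h and 12 h of tumour necrosis factor (TNF, an inflammatory cytokine) and 1 from basal cells harvested without it. The TNF concentration was 10 ng/ml at the first and the last of these times. The protocol entry of the 2 h sample repeats the basal text, and its title and source name alone place it at 2 h of TNF. The study's title concerns mRNA stability and the timing of inflammatory genes; RNA levels, not stability, were read by the arrays.

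Binding of TNF to its receptor frees NF-kB proteins, held in the cytoplasm by inhibitors of the IkB family, to enter the nucleus and switch on target genes. Icam1 and Vcam1 are classic targets on endothelium and on fibroblasts: Icam1 binds the leukocyte beta-2 integrins (with alpha chains encoded by Itgal and Itgam), and Vcam1 binds integrins with the alpha-4 chain (encoded by Itga4). Both proteins can be cut from the cell surface by metalloproteinases of the Adam family.

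Promoter sequence was matched for 1 of the 2 genes, Icam1, in a RefSeq table of the GRCm38.p6 assembly; Vcam1 was not matched. The 250 bases before the annotated Icam1 start (chr9:21015690-21015939, plus strand) are shown because they hold a kappaB-type element, the kind of short site that NF-kB proteins bind. Capitals mark the match to GGAAATTCC, which lies 153 to 145 bases before the start.
Icam1 promoter: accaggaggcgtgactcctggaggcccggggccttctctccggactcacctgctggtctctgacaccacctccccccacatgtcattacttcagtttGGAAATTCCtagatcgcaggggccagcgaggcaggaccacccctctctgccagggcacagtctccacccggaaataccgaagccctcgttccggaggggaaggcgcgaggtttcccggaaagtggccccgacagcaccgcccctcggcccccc
GGAAATTCC matched on the plus strand and, searched on both strands, was present in 104 of 32851 promoter windows of 300 bases, which is 0.317%. A looser kappaB-type pattern, GGG and CC with 5 bases of any kind between them, likewise searched on both strands as were all others, matched once, at positions -120 to -111 from the Icam1 start and apart from GGAAATTCC; 50.8% of all windows hold it. The Icam1 window held no match to GGG, 2 bases of any kind and TTTCC (in 1.63% of windows), to GGG, 3 bases of any kind and TCCC (5.55%), to the AP-1 pattern TGANTCA (7.81%) or to the interferon-factor pattern GAAA, 2 bases of any kind and GAAA (3.44%). The GC-box letters GGGCGG, in 35.7% of windows, matched on the minus strand at positions -17 to -12 and again after the start, and TATAAA, in 13.6%, matched after the annotated start. For comparison, the matches of Nfkbia (the IkB-alpha inhibitor gene) and Irf1 (an interferon-response transcription factor), which NF-kB also switches on, to the stricter kappaB-type patterns are given on each gene's own strand, with the match in capitals and up to 10 bases on each side; they lie at chr9:21015787-21015795 (plus strand) for Icam1, chr12:55492668-55492676 (minus strand) for Nfkbia and chr11:53770001-53770010 (plus strand) for Irf1.
Icam1: acttcagtttGGAAATTCCtagatcgcag
Nfkbia: tgactggcttGGAAATTCCccgcgcctga
Irf1: agtccgggccGGGGAATCCCgct
Icam1 and Nfkbia hold the same 9 letters, 29 to 21 bases before the start in Nfkbia. At positions -29 to -20 Nfkbia also matches GGG, 2 bases and TTTCC on the opposite strand, a pattern without a match in Icam1. The Irf1 match is to GGG, 3 bases and TCCC, 13 to 4 bases before 1 annotated start. The window of a further annotated Irf1 start held no kappaB-type match. The looser pattern also matched elsewhere before the start of Nfkbia and before the first of these Irf1 starts. The window of Nfkbie, encoding the inhibitor IkB-epsilon, held matches to the looser pattern and none to the stricter kappaB-type patterns. These are letter matches; binding was not measured.

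With 1 array in each group there is no spread between replicates and 0 tests were run. A gene is said to rise or fall when its ratio was at least 2-fold after signals below 9.07, the 30th percentile of all values, were raised to that floor. As a guide to error, each ratio is set beside the scatter of the 1000 probe sets nearest in mean signal on the same pair of arrays (a scaled median absolute deviation of their log2 ratios), which is not a replicate error and includes real changes of those probe sets. The 3 ratios to basal share the basal array, and no array of untreated cells at the later times was analysed here, so effects of TNF and of time in low serum cannot be told apart. Array medians ran from 19.8 (12 h) to 22.1 (basal). In bulk RNA, a change in the number of cells that express a gene and a change in RNA per cell cannot be told apart.

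Markers of the labelled cell type were read first, because Icam1 and Vcam1 are also endothelial and leukocyte genes. Of 10 fibroblast markers, 8 had clear signals, such as Col1a1 (a collagen chain; 3388 in basal cells) and Vim (vimentin; 9818), whereas Thy1 (10.9 to 14.6 over the 4 arrays) and Dcn (2.09 to 19.9) lay near the floor, Dcn falling at 0.5 h and 2 h. The summed signal of the 9 endothelial markers on the array was 82.8 in basal cells and 105, 104 and 95.6 at 0.5, 2 and 12 h; Vwf was under the floor on all 4 arrays, and Cdh5, which marks endothelial junctions, stayed between 10.6 and 13.6. Of the endothelial markers analysed, Cldn5 rose at 0.5 h, Esam rose at 12 h and Tek fell at 12 h, all with signals of at most 22.2. The 8 leukocyte markers on the array summed to 238 in basal cells and to 263, 240.1 and 252 at the 3 TNF times. Of the 5 analysed, 0 rose or fell by the probe set of highest mean signal. The highest of 3 Csf1r probe sets gave a log2 ratio of 1.35 at 2 h. Lyz2 was at 35.3 at 12 h against 18 in basal cells, a log2 ratio of 0.97, just short of the rule. The pan-leukocyte gene Ptprc was under the floor throughout, but Cd14 (93.5 to 111 over the 4 arrays) and Csf1r (54.6 to 69.3) lay well above it. The 6 epithelial markers summed to 133 in basal cells and to 107, 105 and 113 under TNF, with Epcam and Krt18 falling at 2 h and Krt18 at 12 h. Beside these marker counts, 2.57%, 2.59% and 2.81% of all genes rose and 2.97%, 3.62% and 5.18% fell at the 3 times. The 4 reference genes with a probe set had a median log2 ratio to basal of -0.07, -0.11 and -0.12 at the 3 times. The part of these markers in the Icam1 and Vcam1 ratios was not tested.

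Icam1 RNA stayed near the median of the array through 0.5 h of TNF and was then far higher. Its probe set read 19.1 without TNF, 21.5 after 0.5 h, 228 after 2 h and 152 after 12 h. The first 2 signals lay at 0.864 and 1.01 times the median signal of their arrays, and those at 2 h and 12 h lay at 11 and 7.66 times the median. Icam1 thus had a low and a high pair of arrays, with the break between 0.5 h and 2 h.

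At 0.5 h Icam1 did not meet the 2-fold rule: the log2 ratio to basal was 0.17, within the scatter of 0.63 among probe sets of that signal, and the 3440th largest of 16274 genes, of which 2.57% rose. At 2 h it stood 11.9-fold above basal, a log2 ratio of 3.58 beside a scatter of 0.36. This was the 7th largest of the ratios of 16274 genes analysed, of which 2.59% rose at that time. At 12 h it was 7.97-fold above basal, a log2 ratio of 2.99 beside a scatter of 0.44, and the 12th largest; 2.81% of genes rose. Against the 0.5 h array the 2 h signal was 10.6-fold higher, the 2nd largest step of any gene in a comparison where 2.61% rose. Because the basal signal is low, the size of these ratios depends on the floor: with the floor at the 75th percentile (102), above the basal and 0.5 h signals, the log2 ratios were 1.16 at 2 h and 0.58 at 12 h, the second of which no longer met the rule.

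**Figure D1:**
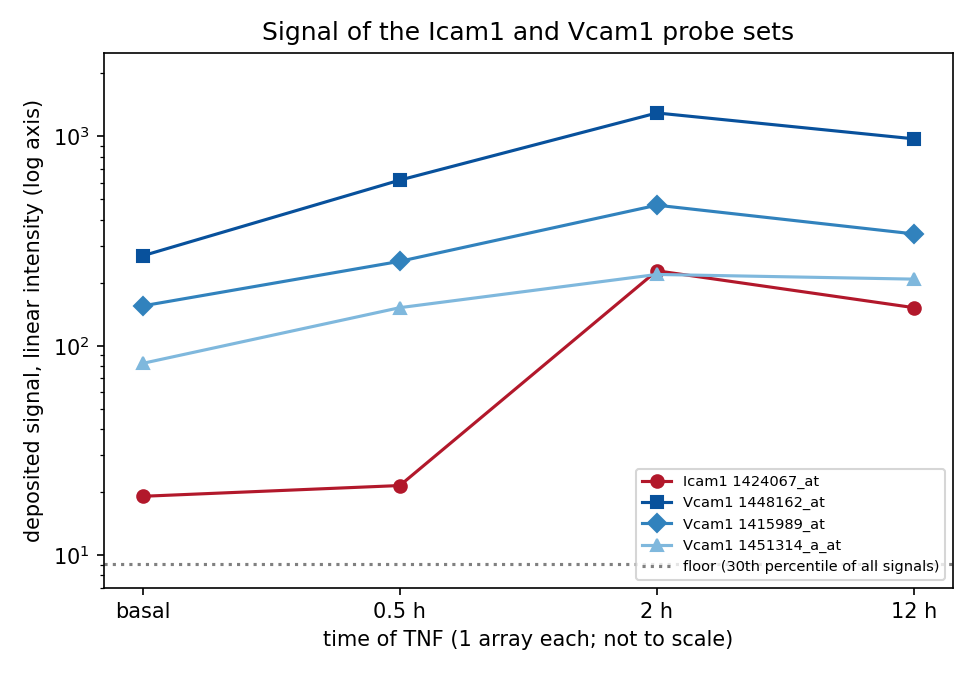
Deposited signal (log axis) of the Icam1 probe set and the 3 Vcam1 probe sets on the 4 arrays, 1 point per array, with the floor of 9.07 as a dotted line. All 4 probe sets are highest at 2 h; Icam1 stays at 19.1 and 21.5 on the first 2 arrays, and heights of different probe sets cannot be compared as RNA amounts.

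Vcam1 RNA gave a signal well above the floor in basal cells by all 3 probe sets and a higher one at 0.5 h. The probe set 1448162_at, which has the highest mean signal of the 3 and stands for the gene, gave signals of 269 without TNF, 618 after 0.5 h, 1293 after 2 h and 973 after 12 h. The probe set 1415989_at gave 155, 253, 469 and 342, and 1451314_a_at gave 82.4, 152, 219 and 208, in the same order of arrays. All 3 placed the arrays in the same order, with basal lowest, then 0.5 h, 12 h and 2 h; Icam1 gave that order too.

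Against basal, 1448162_at was 2.29-fold higher at 0.5 h, 4.80-fold higher at 2 h and 3.61-fold higher at 12 h. The log2 ratios of 1.20, 2.26 and 1.85 stand beside scatters of 0.14, 0.17 and 0.27. By this probe set Vcam1 rose at all 3 times, with 2.57%, 2.59% and 2.81% of all genes rising. Its ratio was the 239th largest at 0.5 h, the 21st at 2 h and the 59th at 12 h of 16274 genes. Many genes above it at 0.5 h had low signals: among the 7314 genes whose highest signal reached 102, 0.438% rose at 0.5 h and Vcam1 had the 23rd largest ratio. At 2 h, when 0.82% of these genes rose, it had the 17th, and at 12 h, when 1.03% rose, the 28th. Icam1 was 691st, 7th and 11th among them at the 3 times. It passed the cut of 102 only through its 2 h and 12 h signals, so these ranks are not separate support for its rise.

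The 3 Vcam1 probe sets agreed in direction at every time against basal but not in size. At 0.5 h their log2 ratios ran from 0.71 to 1.20, so the call of a rise rests on 1448162_at: 1415989_at was 1.63-fold higher and 1451314_a_at 1.85-fold higher, both short of the rule. At 2 h they ran from 1.41 to 2.26 and at 12 h from 1.14 to 1.85, all past 2-fold. The mean of the 3 probe sets gave 0.93, 1.76 and 1.44 at the 3 times. The ratios of 1415989_at and 1451314_a_at were 3.03-fold and 2.65-fold at 2 h, with scatters of 0.19 and 0.27 on the log2 scale.

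**Figure D2:**
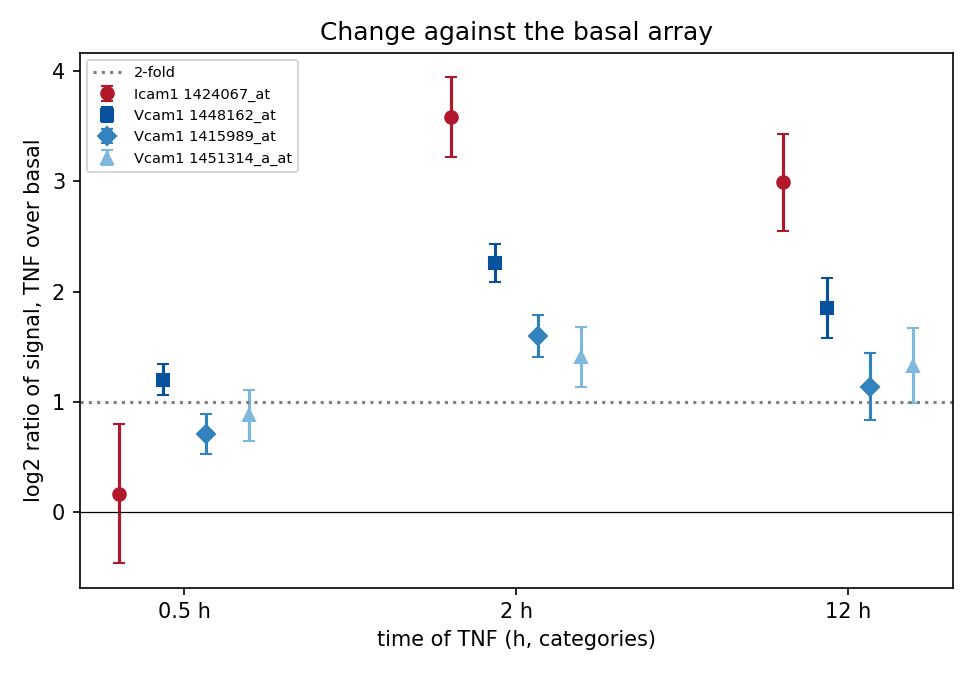
Log2 ratio of signal, each TNF array over basal, for the 4 probe sets; bars are the scatter of the 1000 probe sets nearest in mean signal, not a replicate error, and the dotted line is 2-fold. At 0.5 h Icam1 (0.17) lies below all 3 Vcam1 probe sets (0.71 to 1.20), and at 2 h and 12 h it lies above them.

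The genes therefore changed places between 0.5 h and 2 h in the size of their ratios. At 0.5 h the log2 ratio of Icam1 minus that of Vcam1 was between -1.03 and -0.53 for the 3 Vcam1 probe sets, beside a scatter of 0.63 for Icam1 itself. At 2 h the difference was between 1.31 and 2.17, more than the range of 0.85 among the Vcam1 probe sets. At 12 h it was between 1.14 and 1.85, where the Vcam1 probe sets spanned 0.71. These differences were not tested, and ratios of different probe sets also depend on how each responds to RNA. With the floor at 102 the 2 h and 12 h differences from 1448162_at turn round, with log2 ratios of 1.16 and 0.58 for Icam1 and 2.26 and 1.85 for 1448162_at.

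The timing was put on 1 scale as the share of the highest rise above basal, on the linear signal, that each array had reached; all 4 probe sets reached it at 2 h. At 0.5 h Icam1 had reached 1.16% of its rise, whereas 1448162_at had reached 34.0%, 1415989_at 31.2% and 1451314_a_at 51.2% of theirs. On the log2 scale these shares were 4.80% for Icam1 and 52.9%, 44.2% and 62.8% for the Vcam1 probe sets, so the order was the same. At 12 h the shares were 63.7% for Icam1 and 68.7%, 59.7% and 92.2% for the Vcam1 probe sets. Icam1 and Vcam1 thus stood apart at 0.5 h and overlapped at 12 h.

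**Figure D3:**
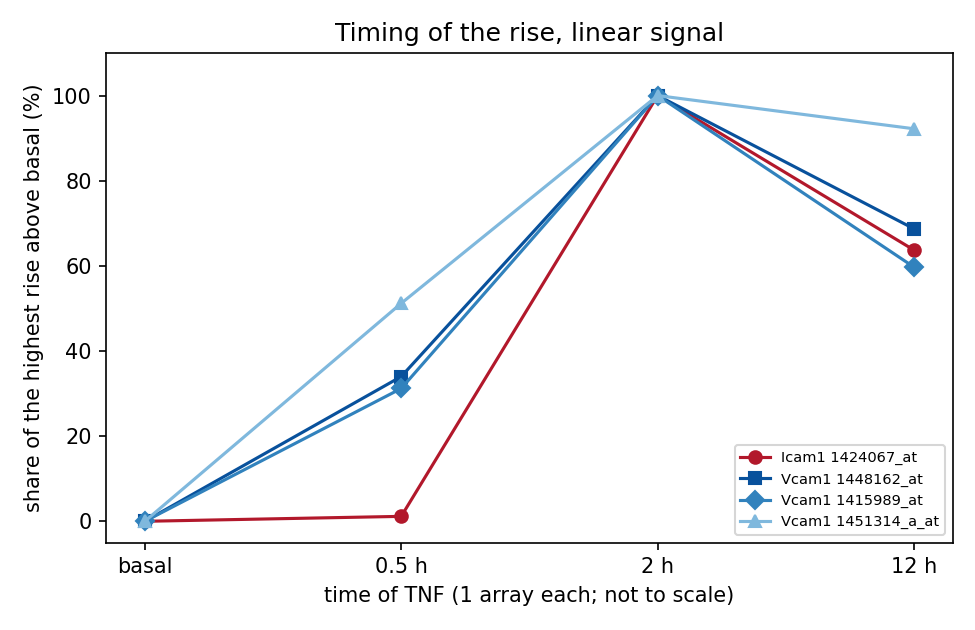
Share of the highest rise above basal (linear signal, percent) reached on each array by the 4 probe sets, with basal set to 0. Icam1 is at 1.16% at 0.5 h against 31.2% to 51.2% for Vcam1, and 3 of the 4 probe sets are between 59.7% and 68.7% at 12 h.

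The step from 2 h to 12 h was small for both genes. Icam1 had a log2 ratio of -0.58 (12 h over 2 h) beside a scatter of 0.28, and the Vcam1 probe sets gave -0.41, -0.45 and -0.07 beside scatters of 0.19, 0.23 and 0.28. None of the 4 met the 2-fold rule, where 3.13% of all genes fell and 2.81% rose. The median of probe sets with like signal was itself between -0.12 and -0.10 at this step. From 0.5 h to 2 h, 1448162_at was 2.09-fold higher (the 352nd largest step of all genes and the 40th among the 7314, of which 0.574% rose), while 1415989_at and 1451314_a_at were 1.85-fold and 1.44-fold higher and did not meet the rule.

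Among 108 genes that rose at any TNF time and whose highest signal reached 102, 18 had that signal at 0.5 h, 37 at 2 h and 53 at 12 h. Icam1 and Vcam1 were 2 of the 37, and Icam1 passed the signal cut only through its 2 h and 12 h arrays. Of these 37 genes, 7 had a lower share of their rise than Icam1 at 0.5 h and 30 had a lower share than Vcam1; the median was 19.1%. At 12 h, 25 had a lower share than Icam1 and 26 a lower share than Vcam1, with a median of 54.3%. Among genes that peak at 2 h, Icam1 thus lay in the slower part and Vcam1 in the faster part at 0.5 h, and both lay in the upper part at 12 h.

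The genes with the most similar profile were found by the distance between their 3 log2 ratios to basal, over 3 values from 4 arrays, among 7313 other genes whose highest signal reached 102. For Icam1 these were Gch1 (GTP cyclohydrolase, of tetrahydrobiopterin synthesis; distance 1.09), Gbp2 (an interferon-inducible GTPase; 1.26), Casp4 (an inflammatory caspase; 1.36), Relb (an NF-kB subunit; 1.42) and Tlr2 (a receptor for bacterial lipoproteins; 1.73). Gch1 gave signals of 30.5, 31.0, 190.4 and 168 in basal cells and at 0.5, 2 and 12 h, with 0.33% of its rise at 0.5 h. Its second probe set gave a log2 ratio of 1.02 at 0.5 h. The genes were picked for a profile similar to that of Icam1, so a shared pattern is not a separate finding. Gch1, Gbp2, Casp4 and Relb passed the cut of 102 only through signals at 2 h or 12 h. Casp4 was under the floor in basal cells, which makes its ratios lower bounds. Unlike Icam1, Gbp2 and Casp4 had their highest signal at 12 h (147 and 160.4). The second Gbp2 probe set gave log2 ratios of 0.00 at 0.5 h and 1.75 at 2 h. A ratio of 0.00 is also what signals raised to the floor give.

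For Vcam1 the 4 closest were Cx3cl1 (a membrane-bound chemokine that itself holds leukocytes; distance 0.58), Ccl9 (a CC chemokine; 0.70), Mt2 (a metallothionein; 0.73) and Relb (0.78). Cx3cl1 gave 179, 318, 834 and 475 in basal cells and at 0.5, 2 and 12 h. That is the order of arrays for Vcam1, whose profile Cx3cl1 was picked to resemble. The log2 ratios of the 4 Cx3cl1 probe sets ranged from 0.00 to 2.90 at 0.5 h. Unlike Vcam1, Ccl9 and Mt2 had their highest signal at 12 h (180.1 and 1239). Relb was among the closest genes of both Icam1 and Vcam1. Vcam1 was the 10th closest gene to Icam1, and Icam1 the 53rd closest to Vcam1, at a distance of 2.02.

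Of 14 adhesion molecules of the immunoglobulin superfamily, all on the array and all analysed, Icam1 and Vcam1 were the only 2 to rise at 2 h and at 12 h by this rule, and Vcam1 the only 1 at 0.5 h. The highest of 5 Alcam probe sets gave 1.04 on the log2 scale at 0.5 h. Of all genes 2.57%, 2.59% and 2.81% rose and 2.97%, 3.62% and 5.18% fell at the 3 times. Mcam, an adhesion molecule of pericytes and melanoma cells, fell at 12 h to 24.6, against 89.4 in basal cells, a log2 ratio of -1.86. The list's median log2 ratio was 0.07, -0.21 and 0.00, beside -0.03, -0.09 and -0.14 for all genes. Without Icam1 and Vcam1, which were put in the list by choice, the median was 0.03, -0.23 and 0.00. Cd47, a signal to phagocytes, gave 1397 at 12 h against 870.2 in basal cells (log2 ratio 0.68), and Alcam, a partner of the T-cell receptor Cd6, gave 146 against 235 (-0.69). Madcam1, a receptor of gut-homing lymphocytes, gave 46.9 at 12 h against 23.9, a log2 ratio of 0.97, just short of the rule. The number that rose at 12 h was 3 with median centring, quantile normalization or loess, and 1 with the floor at the 75th percentile; at 2 h it was 3 with the floor at the 20th percentile or with none. With the mean of all probe sets, 0 rose at 0.5 h.

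In gene order, the 3 nearest protein-coding genes on each side of Icam1 and of Vcam1 make 12, of which 11 had a probe set. At 2 h 0 of the 11 rose, where 2.59% of all genes did, so the count is near the background; 1 rose at any time and 0 fell. Icam4 and Icam5, relatives of Icam1 that follow it on chromosome 9, gave log2 ratios of -0.44 and -0.88 at 2 h, with signals of 12.3 and, under the floor, 3.96, against 16.7 for each in basal cells. Mrpl4, the nearest gene on the other side, gave 0.12. Extl2, the nearest to Vcam1 on chromosome 3, gave 0.64 at 2 h. The 1 gene that rose was Zglp1, at 27.8 at 0.5 h and under the floor in basal cells.

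The selectin genes, whose proteins catch rolling leukocytes before Icam1 and Vcam1 arrest them, had low signals. Sele was at most 16.4 on any array and highest in basal cells. Of the 7 genes of selectins and their ligands with a probe set, 0 rose at 0.5 h, 2 rose at 2 h and 1 at 12 h, when 2.57%, 2.59% and 2.81% of all genes rose. With the floor at the 50th percentile 0 rose at 2 h and at 12 h, and with the mean of all probe sets 1 rose at 2 h. The 2 genes as reported for 2 h were Selp, at 21.5 at 2 h against 9.57 in basal cells, and Selplg, the ligand of P-selectin on leukocytes, at 20.6 against 9.82; both changes lie close to the floor. The list's median log2 ratio was -0.08, 0.12 and 0.32. Cd44, which binds hyaluronan, was at most 1.38-fold above basal by its probe set of highest mean signal. The highest of its 4 probe sets gave a log2 ratio of 0.55 at 2 h.

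The integrins that bind Icam1 and Vcam1 belong to the leukocyte side of the contact. Of 8 with a probe set, 1 (Itgam) was under the floor on all 4 arrays, and Itgb2, the shared beta-2 chain, was between 7.24 and 13.8. Itgal, at 27.8 in basal cells, fell to under the floor at all 3 times, at least 3.06-fold lower. Its second probe set gave log2 ratios between 0.00 and 0.07, where 0.00 is also what signals raised to the floor give. Itga4 fell at 0.5 h (9.64, against 20 in basal cells), although its 5 probe sets ranged from -1.06 to 0.14 on the log2 scale. With the mean of all probe sets 0 integrin genes fell at any of the 3 times. By its 1 probe set, Itgb7 rose at 2 h to 22.7, being under the floor on the other 3 arrays. Itgb1, the beta-1 chain found on most cells, was at 1287 at 12 h against 1601 in basal cells, a log2 ratio of -0.31. The median log2 ratio of the 7 analysed was -0.56, 0.05 and -0.31. Among these 7, 0, 1 and 0 rose and 2, 1 and 1 fell at the 3 times. The shares of all genes were 2.57%, 2.59% and 2.81% for rises and 2.97%, 3.62% and 5.18% for falls.

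Genes whose products anchor or shed the 2 proteins stayed within 2-fold of basal by the probe set that stands for each. Of 7 linkers between membrane and actin, 0 rose and 0 fell at any time, with median log2 ratios of -0.01, -0.03 and -0.20; Ezr (ezrin), which ties the tails of Icam1 and Vcam1 to actin, gave -0.75 at 12 h and Msn (moesin), with the same role, 0.07. The second Ezr probe set gave a log2 ratio of -2.64 at 2 h, and 1 linker fell at 2 h with the mean of all probe sets. Of 5 genes of shedding, 0 rose and 0 fell, with medians of -0.01, -0.04 and -0.26. Of all genes 2.57%, 2.59% and 2.81% rose and 2.97%, 3.62% and 5.18% fell at the 3 times. The counts of linkers and of shedding genes are thus near the background. Adam17, the protease that sheds Vcam1, gave signals of 196, 195, 207 and 217 in basal cells and at 0.5, 2 and 12 h.

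Upstream, the receptor and the NF-kB subunit most used in TNF signalling stayed within 2-fold of basal, while some genes of inhibitors and of other subunits rose. Tnfrsf1a, the main TNF receptor gene, gave 529 in basal cells and then 464, 509 and 437 at 0.5, 2 and 12 h. Rela, encoding p65, gave log2 ratios of 0.21, 0.12 and 0.35; Nfkb1 has no probe set with a single gene here. Of 15 genes of TNF receptors and NF-kB factors analysed, 4, 5 and 5 rose at 0.5, 2 and 12 h, when 2.57%, 2.59% and 2.81% of all genes rose, and 0 fell, when 2.97%, 3.62% and 5.18% did. The subunit gene Rel (log2 ratios of -0.15, -0.25 and -0.28) and the inhibitor gene Nfkbib (-0.30, 0.03 and 0.55) were not among those that rose. Nfkbia was at 7476 at 0.5 h against 1843 in basal cells, with its highest signal before those of Icam1 and Vcam1. Tnfaip3, encoding the NF-kB inhibitor A20, likewise had its highest signal at 0.5 h, and 53.0% and 13.3% of that rise remained at 2 h and 12 h. Nfkbie, encoding IkB-epsilon, had 5.89% of its rise at 0.5 h and 63.6% at 12 h, beside 1.16% and 63.7% for Icam1. Relb had 22.3% and 76.8%, beside 34.0% and 68.7% for Vcam1.

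Other transcription factors known to act at the Icam1 or Vcam1 promoter included 3 that rose at 0.5 h, ahead of the 2 h peak of both genes. Of 11 analysed, 2 rose at 2 h and 0 at 12 h, and 1 fell at 12 h. Of all genes 2.57%, 2.59% and 2.81% rose at 0.5, 2 and 12 h, and 5.18% fell at 12 h, so the 12 h counts are near the background. The list's median log2 ratios were 0.20, 0.14 and -0.40. Irf1 was at 949.5 at 0.5 h, 621 at 2 h and 284 at 12 h, against 151 in basal cells, so the highest signal came at the time when Icam1 was still at 21.5. The other two were Fos and Junb, parts of the AP-1 factor, at log2 ratios of 1.81 and 1.09 at 0.5 h, and Fos fell by 2.74 on the log2 scale at 12 h. Cebpd, encoding C/EBP-delta, rose at 2 h, to 1114 against 288 in basal cells, and had 5.16% of its rise at 0.5 h.

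**Figure D4:**
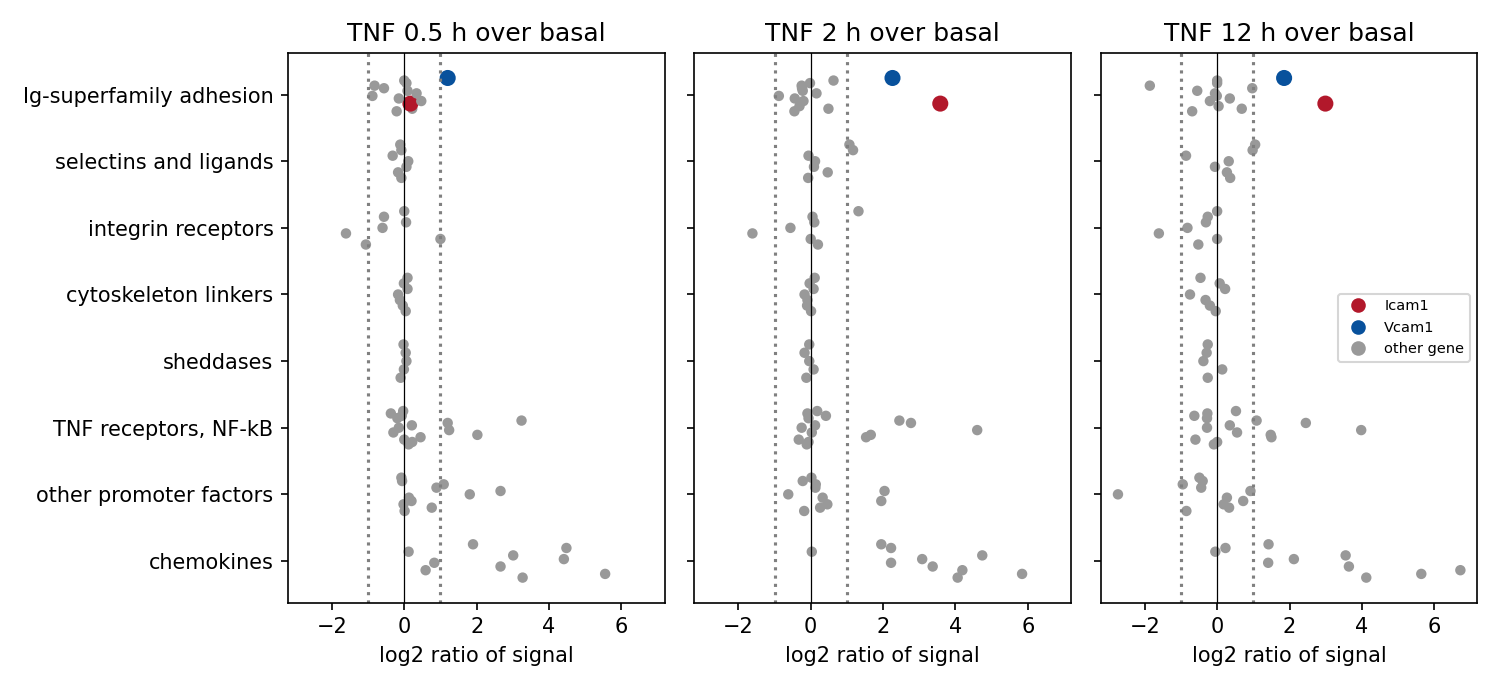
Log2 ratio of signal, TNF over basal, at 0.5, 2 and 12 h for each analysed gene of 8 lists, 1 point per gene, with dotted lines at 2-fold; Icam1 and Vcam1 are coloured. They are the 2 points past 2-fold in the adhesion list at 2 h with the floor as reported, and linkers and sheddases stay within 2-fold by the probe set plotted for each gene, though the second Ezr probe set, not plotted, is at -2.64 at 2 h.

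Chemokines, which activate the integrins that then bind Icam1 and Vcam1, made up the list with the highest medians of the 8 pathway lists. Of 10 analysed, 7, 9 and 8 rose at the 3 times, when 2.57%, 2.59% and 2.81% of all genes did, with medians of 2.83, 3.22 and 2.84. The lists were chosen with earlier results of these data known, so this rank and these counts are not independent support. The number that fell was 0, near the background of 2.97%, 3.62% and 5.18% of all genes. The neutrophil chemokine gene Cxcl2 had its highest signal at 0.5 h (203, under the floor in basal cells). Ccl20 had reached 81.5% of its rise at 0.5 h and Cxcl10 27.4%. Ccl5 was at 13.6 at 0.5 h, 165 at 2 h and 957 at 12 h and was under the floor in basal cells, so that at 12 h it was at least 105-fold higher. Vcam1 had thus gained 34.0% of its rise when Cxcl2 was highest, and Icam1 and Vcam1 were past their highest signal when that of Ccl5 was reached. Each of these times rests on 1 array.

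**Figure D5:**
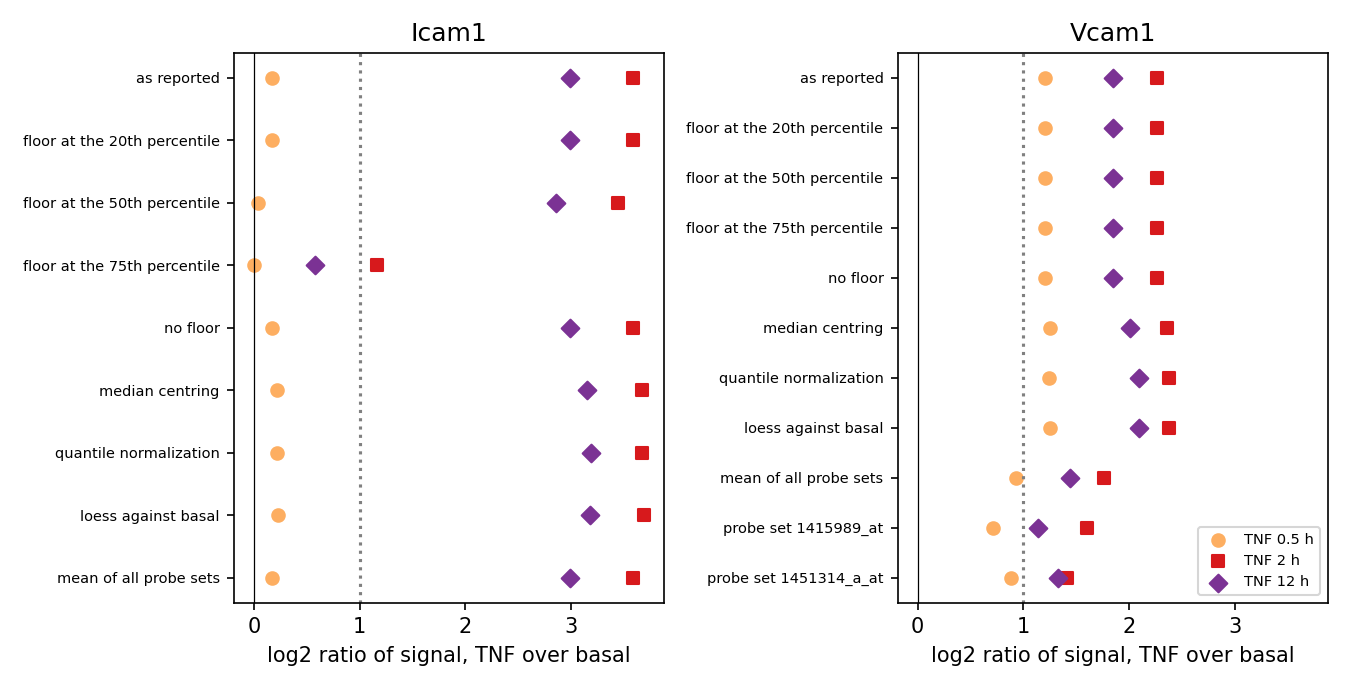
Log2 ratio to basal of Icam1 (left) and Vcam1 (right) at the 3 TNF times as reported and under each alternative setting, 1 point per time, with the dotted line at 2-fold. Icam1 moves with a floor at the 75th percentile, to 1.16 at 2 h and 0.58 at 12 h, and Vcam1 moves with the choice of probe set, from 2.26 to 1.41 at 2 h.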

How the data were processed

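RNA of 1 basal and 3 TNF-treated samples was hybridised to Affymetrix mouse genome arrays, per the labels' protocols. The authors deposited linear intensity values, 1 per probe set and array; the signal algorithm, scaling and build are not given in the sources here. Of 45101 probe sets, 64 controls were left out. The platform annotation gave 1 gene for 34945, several for 932 and none for 9160; 34741 gene IDs were found in RefSeq and 0 symbols changed. Signals under the 30th percentile (9.07) were raised to it, log2 ratios were taken with no further scaling, and the probe set of highest mean log2 signal stood for its gene; 16274 of 18193 genes had a signal above the floor. Python 3.11.15, numpy 2.4.6, pandas 2.3.3 and statsmodels 0.14.6 were used, and the ratios were tested on simulated data. Named genes were Icam1, Vcam1, up to 4 members per list that passed 2-fold, 5 genes fixed by name and the 5 nearest profiles, of which 1 is not reported here; others belong to counts, gene order or marker checks and were named after their values were seen. The members and the 13 lists (122 genes) were chosen with earlier results of these data known. The number of arrays limits the precision.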

Additional observations from a re-analysis of the deposited data

How the results depend on the processing

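No paired analysis was possible because each group holds 1 array and no result comes from a test. Leaving out a replicate was likewise impossible. The alternatives were other floors (20th, 50th or 75th percentile, or none), other scalings (quantile, loess against basal, median centring), the mean over probe sets and, chosen after seeing the data, each other Vcam1 probe set. No log2 ratio that met the rule changed sign. Icam1 moved by more than its scatter only with the floor at the 75th percentile: 1.16 at 2 h, 0.58 at 12 h and 1.16 for 2 h over 0.5 h, because the floor then exceeds its low signals. Vcam1 moved only with the probe set. The mean of its probe sets gave 0.93, 1.76 and 1.44 at 0.5, 2 and 12 h and 0.83 for 2 h over 0.5 h. 1415989_at gave 0.71, 1.60, 1.14 and 0.89, and 1451314_a_at 0.88, 1.41, 1.33 and 0.52, with -0.07 for 12 h over 2 h. Across scalings the 2 h ratios reached 3.69 for Icam1 and 2.38 for Vcam1. On the log2 scale the share of the rise at 0.5 h was 4.80% for Icam1 and 44.2% and 52.9% for 1415989_at and 1448162_at. List genes past 2-fold in either direction numbered 19, 25 and 22 at the 3 times, of 122 listed, some not on the array. Among all genes analysed 2.57%, 2.59% and 2.81% rose and 2.97%, 3.62% and 5.18% fell. The list counts were 12, 15 and 13 with the 75th percentile floor, and 12 and 13 at 0.5 h and 12 h under a 3-fold rule. They were 30 and 39 at 0.5 h and 12 h under a 1.5-fold rule, and 29 at 0.5 h with no floor. Of 480 counts per list and setting, 357 stayed within 1.5 times. Signal over background limits low genes: at the basal signal of Icam1 the scatter at 0.5 h was 0.63, and Selp, Sele and Itgb7 were near or below that signal.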
